A study of Mus musculus with 8 samples.

Results

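The transcripts of 29 genes for cholesterol synthesis and its control by sterol regulatory element-binding proteins (SREBPs) were followed in primary mouse liver myofibroblasts after inhibition of O-GlcNAc transferase. They were taken by symbol from a list of SREBP regulators, synthesis enzymes and sterol-handling genes. All 29 were found among the 40840 genes of the deposited tables, and all 29 passed the low-count filter, which kept 19963 genes. RNA-seq libraries came from 8 cultures of primary myofibroblastic hepatic stellate cells (pMF-HSCs). The cells were sorted by retinol autofluorescence from livers of male C57BL/6J mice aged 15 to 18 weeks and turned into myofibroblasts (MFs) during 7 days on plastic in medium with serum. The control group (n = 4) received the vehicle DMSO for 24 h. The treated group (OGTi, n = 4) received OSMI-1, an inhibitor of O-GlcNAc transferase, at 50 µM for 24 h. No group carried a transgene or a deleted gene, and the methods describe the 4 replicates as independent experiments with treated and control cultures paired by number. Whether a replicate pooled several mice is not given in the sources used here.

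Cells build cholesterol from acetyl-CoA through mevalonate, isoprenoids, squalene and lanosterol. SREBPs are transcription factors held in the endoplasmic reticulum by SCAP and INSIG proteins while sterols are plentiful, and released to the nucleus to switch on synthesis and uptake genes when sterols fall. Liver X receptors (LXRs) respond to oxysterols in the opposite situation and switch on cholesterol export. O-GlcNAc transferase places a sugar on nuclear and cytoplasmic proteins, transcription factors among them. Hepatic stellate cells are known for storing retinyl esters together with sterol esters and triglycerides in lipid droplets, which shrink as the cells become MFs.

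Libraries held from 30068876 to 37372420 expected counts. Of 15 stellate and MF markers, all were detected, with summed levels of 4039 to 7062 TPM in control and 3315 to 7505 TPM in OGTi, and 4 of them were called lower in OGTi, Pdgfrb and Lrat included. The 10 hepatocyte markers summed to at most 7.66 TPM in any library, with Tat at 0 in all and Alb at most 0.085 TPM in the group means, and 1 of them, Cyp2e1, was called higher. The 10 endothelial markers summed to 1.57 to 3.42 TPM in control and from 0.36 TPM up to less than the lowest control in OGTi, with Lyve1 and Tek called lower. The 10 macrophage markers summed to 49.9 to 187 TPM in control and 90.2 to 234 TPM in OGTi, most of it Lyz2 and Cd68, of which Cd68 was called higher. The 7 cholangiocyte markers, mostly Spp1 and Krt19, summed to 307 to 655 TPM in control and 128 to 563 TPM in OGTi, with Krt19 called lower and Sox9 higher. Proliferation markers fell, with 11 of 12 called lower and sums of 268 to 538 TPM in control against 130 to 244 TPM in OGTi. What part these shifts had in the results was not tested. In bulk RNA, fewer cells of a type and less RNA per cell cannot be told apart. Among well-expressed genes, 230 lay at least 4-fold below all other control libraries in control replicate 4 and 174 below all other OGTi libraries in OGTi replicate 1. The corresponding number was 0 to 17 for the 6 remaining libraries. Genes 4-fold above the others numbered 176 in OGTi replicate 4 and 4 to 24 elsewhere. Hmgcs1 in OGTi replicate 1 was the only member among these genes. In that library short genes ran high and long genes low. The medians were 0.59 and -0.47 on the log2 scale for the shortest and the longest of 5 length classes relative to the other OGTi libraries.

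The cholesterol pathway did not move as a block. Of the 29 members, 2 rose (Acat2 and Tm7sf2) and 6 fell (Srebf1, Dhcr7, Abca1, Abcg1, Ch25h and Stard4) at an adjusted p of at most 0.05 in the paired edgeR quasi-likelihood test, which gives 27.6% called. Over all genes tested 18.4% were called, 8.13% higher and 10.2% lower. The median log2 fold change was 0.03 over the members and 0.01 over all genes. Of 18 synthesis enzymes 3 were called (16.7%), 2 higher and 1 lower, whereas 4 of 6 genes for sterol export, transport, storage and sensing were called, each of them lower. The 5 regulators held 1 called gene. Values of the 2 groups did not overlap in 2 members higher and 7 members lower in OGTi, where 11.5% of all genes were separated upward and 12% downward. All 4 pairs went upward in 6 members and downward in 10, against 19.4% and 21.5% of all genes. These shares over all genes include genes with as few as 10 counts in total. With the stricter filterByExpr filter of edgeR, 3704 of 14648 genes were called, with 3 members higher and 7 lower.

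**Figure D1:**
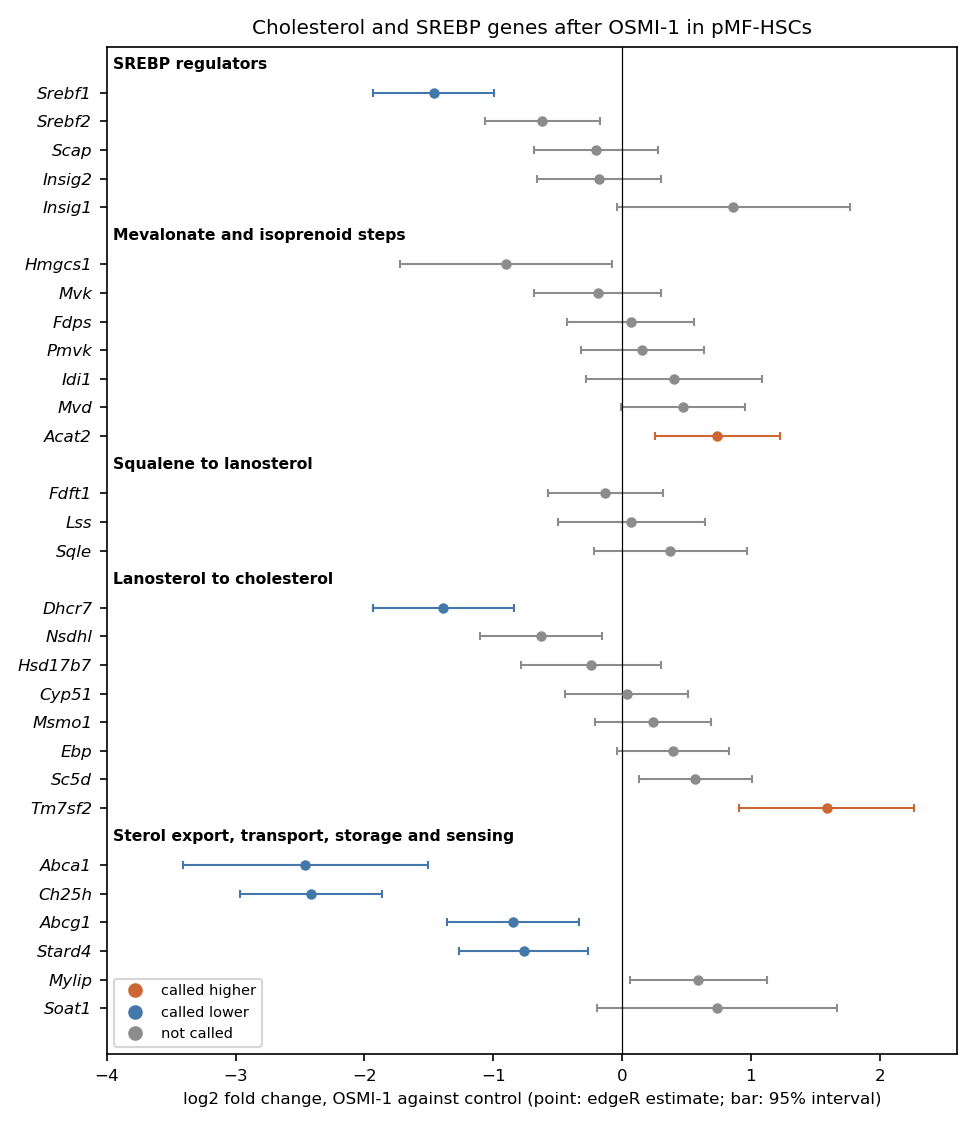
Log2 fold change of each of the 29 members, OGTi (OSMI-1) against control, grouped by role, with 95% intervals from the paired edgeR model (4 pairs). Sterol export and sensing genes hold the largest decreases (Abca1, -2.46, and Ch25h, -2.42), and most synthesis enzymes lie around 0.

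Which short sequence motifs stand before the start sites of these genes was read from RefSeq promoters (GRCm38.p6, a build older than the GRCm39 of the counts), of which 24 members had an entry. Exact matches were sought on both strands in the 250 bases before each start. The sterol regulatory element was spelled TCACNCCAC, the E-box CACGTG and the NF-Y box CCAAT, where N stands for any base. The direct repeat bound by LXRs was searched as well. No motif contains another. The members without an entry were Fdps, Fdft1, Sqle, Stard4 and Abcg1. NF-Y boxes occurred in 20 of the 24 members (83.3%), against 39.3% of 14908 tested genes with a promoter entry, and E-boxes in 6 (25%) against 8.71%. The sterol element occurred in 1 member, Hmgcs1 (4.17%, against 1.25%), and this spelling of the LXR repeat in 0, against 0.0671%. With a spelling that rare, 0 matches among 24 members says little, and looser forms of the repeat were not sought. Promoter composition was not matched between the members and the other genes. The stretches below show the sterol element of Hmgcs1 and the motifs of the called members that had any, each 5′ to 3′ on the strand of the gene. Capitals mark the motif, and ATTGG is CCAAT read on the opposite strand. Acat2 and Ch25h held none of the 4 motifs in this window.
Hmgcs1, sterol element, chr13:119690194-119690242, plus strand: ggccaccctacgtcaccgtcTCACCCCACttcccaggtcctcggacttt
Srebf1, NF-Y box of the outermost start, chr11:60222723-60222767, minus strand: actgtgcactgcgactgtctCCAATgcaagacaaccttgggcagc
Srebf1, NF-Y box of an inner start, chr11:60210477-60210521, minus strand: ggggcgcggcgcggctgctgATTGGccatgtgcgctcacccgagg
Tm7sf2, NF-Y box, chr19:6067873-6067917, minus strand: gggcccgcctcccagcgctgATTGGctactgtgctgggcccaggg
Dhcr7, E-box, chr7:143823215-143823260, plus strand: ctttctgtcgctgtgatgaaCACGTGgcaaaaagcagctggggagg
Dhcr7, outer NF-Y box of an inner start, chr7:143830109-143830153, plus strand: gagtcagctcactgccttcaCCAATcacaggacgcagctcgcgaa
Dhcr7, inner NF-Y box of the same start, chr7:143830145-143830189, plus strand: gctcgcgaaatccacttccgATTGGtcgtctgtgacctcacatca
Abca1, E-box, chr4:53160017-53160062, minus strand: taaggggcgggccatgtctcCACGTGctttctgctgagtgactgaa
Among the called genes, Tm7sf2, which rose, and Srebf1, which fell, both held an NF-Y box. Dhcr7 held both kinds of box and Abca1 an E-box but no NF-Y box. A match is a description of these letters and was not tested against binding.

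Srebf1 was the regulator that changed. It encodes SREBP-1, which drives fatty acid synthesis more than cholesterol synthesis, and lies at chr11:60089913-60113407 (GRCm39). Scaled counts, which are counts corrected for library size and composition, were 1598, 2184, 1677 and 1863 in control replicates 1 to 4 and 565, 964, 606 and 571 in OGTi replicates 1 to 4. Every OGTi culture was below every control culture, and the means were 1831 ± 261 and 676 ± 192 (SD, n = 4). The fall was 2.76-fold (log2 fold change -1.46 ± 0.21 SE, edgeR adjusted p 0.00165). Srebf1 kept this call in all 14 alternatives, with log2 fold changes of -1.77 to -1.18.

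Srebf2 encodes SREBP-2, the main activator of cholesterol synthesis genes. It was lower in all 4 pairs, by 0.43 to 0.70 on the log2 scale, but did not pass the threshold. Control cultures held 1236, 2016, 1931 and 2804 scaled counts and OGTi cultures 763, 1289, 1185 and 2085, so the groups overlapped while each pair went the same way. With the length trend removed, pair 1 read 0.10. The log2 fold change was -0.62 ± 0.20 (SE), with an adjusted p of 0.0575 in the paired edgeR fit and 0.0194 with DESeq2, over a range of 0.0168 to 0.259 across alternatives. Scap, which carries SREBPs out of the endoplasmic reticulum, and Insig2, which holds them there, did not pass either, with log2 fold changes of -0.20 (95% interval -0.68 to 0.28) and -0.18 (-0.66 to 0.30).

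Insig1, the INSIG gene that SREBPs themselves induce, gave an uneven picture. Scaled counts were 1133, 1174, 1271 and 355 in control and 754, 2117, 2211 and 1911 in OGTi. It was higher in pairs 2, 3 and 4 and lower in pair 1, and control replicate 4 was far below the other controls. The log2 fold change of 0.86 ± 0.41 (SE) had an adjusted p of 0.176. Without replicate 1 it was 1.34 (adjusted p 0.0362), and without replicate 4 it was 0.38 (adjusted p 0.524). With all libraries and no filter beyond 1 count it was 0.86 and passed (edgeR adjusted p 0.0374).

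Synthesis starts with Acat2, a cytosolic thiolase that condenses acetyl-CoA, at chr17:13161367-13179641. Its scaled counts were 1942, 2133, 1689 and 1027 in control and 2558, 3115, 3991 and 1755 in OGTi. Each OGTi culture was above its own control, although OGTi replicate 4 lay within the control range. The rise was 1.67-fold (log2 fold change 0.74 ± 0.22 SE, edgeR adjusted p 0.0408). The call was lost in 7 of 14 alternatives, among them the fits without replicates 2, 3 and 4 (adjusted p 0.0753, 0.240 and 0.108) and the fit with no pairing (0.114). Some reads of Acat2 could also fit its close copy Acat3, whose log2 fold change was 0.18 (adjusted p 0.639). Its exons face those of Tcp1 on the other strand over 322 bases, and the authors counted by strand.

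Hmgcs1, the synthase that makes HMG-CoA and the member with the sterol element printed above, was lower in all 4 pairs without passing the threshold. Control cultures held 1801, 1721, 2525 and 2656 scaled counts and OGTi cultures 297, 1383, 2007 and 1840. OGTi replicate 1 stood far below the rest, and the other 3 pairs differed by 0.32 to 0.53 on the log2 scale. The log2 fold change was -0.90 ± 0.37 (SE, adjusted p 0.124) with all pairs and -0.39 (adjusted p 0.174) without replicate 1. With no filter beyond 1 count it was -0.91 and passed (edgeR adjusted p 0.0182).

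The next steps lead through mevalonate kinase (Mvk), phosphomevalonate kinase (Pmvk) and the decarboxylase Mvd to the isomerase Idi1 and the farnesyl diphosphate synthase Fdps. None was called. Mvk, Pmvk and Fdps had log2 fold changes of -0.19, 0.16 and 0.07, and their 95% intervals together ran from -0.68 to 0.64. Mvd stayed within 1014 to 1036 scaled counts in control and reached 1076 to 1779 in OGTi. The groups did not overlap, the log2 fold change was 0.47 ± 0.22 (SE) and the adjusted p was 0.165. Idi1 held 949, 713, 1025 and 949 scaled counts in control and 526, 1260, 1816 and 1584 in OGTi. It was thus higher in pairs 2, 3 and 4 and lower in pair 1, with a log2 fold change of 0.40 (adjusted p 0.416), or 0.80 (adjusted p 0.0259) without replicate 1.

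Squalene is made by Fdft1, oxidised by Sqle and closed to lanosterol by Lss. None of the 3 was called. Fdft1 had a log2 fold change of -0.13 (95% interval -0.58 to 0.32) that turned to 0.12 with the length trend removed. Sqle, a slow step of the pathway, held 1566, 1723, 1999 and 1534 scaled counts in control and 1084, 2188, 4090 and 2385 in OGTi, again lower in pair 1 and higher in the others. Its log2 fold change was 0.38 (-0.22 to 0.97, adjusted p 0.379). Lss had one of 0.07 (-0.50 to 0.64).

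Conversion of lanosterol to cholesterol involved the clearest changes among enzymes, in opposite directions. Tm7sf2, a sterol reductase that acts after the demethylase Cyp51, lies at chr19:6112851-6118403 and was the enzyme with the lowest TPM level in control. It rose from 54.1, 87.9, 85.6 and 35.6 scaled counts in control replicates 1 to 4 to 152, 203, 212 and 191 in OGTi. Each OGTi value exceeded each control value. The rise was 3.01-fold (log2 fold change 1.59 ± 0.31 SE, edgeR adjusted p 0.00603), and it was called in all 14 alternatives. GENCODE places 532 exonic bases of Tm7sf2 on the same strand as its neighbour Vps51, so that reads could be shared. Vps51 was at 981 scaled counts in control and 731 in OGTi, with a log2 fold change of -0.42 (adjusted p 0.220).

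Dhcr7, the reductase of the last step, lies at chr7:143376740-143402149 and fell. It held 578, 813, 625 and 556 scaled counts in control and 211, 452, 172 and 210.2 in OGTi, with no overlap between the groups. The fall was 2.62-fold (log2 fold change -1.39 ± 0.25 SE, edgeR adjusted p 0.00424). The call held in all 14 alternatives, with log2 fold changes of -1.71 to -1.23. OGTi replicate 2 showed the smallest decrease for both Dhcr7 and Srebf1.

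Nsdhl, an X-linked sterol dehydrogenase, was lower in all 4 pairs, and its groups did not overlap. Control cultures held 1097, 976, 1227 and 945 scaled counts and OGTi cultures 845, 679, 725 and 523. It did not pass (log2 fold change -0.63 ± 0.21 SE, edgeR adjusted p 0.0683), but did with DESeq2 (0.0285) and without replicate 1 (0.0475). The desaturase Sc5d went the other way in all 4 pairs, from 4084 to 5968 scaled counts in control to 5905 to 9311 in OGTi. Its log2 fold change was 0.57 ± 0.20 (SE), with an edgeR adjusted p of 0.0741 and a DESeq2 one of 0.0205. Cyp51, Msmo1, Hsd17b7 and the isomerase Ebp did not pass under any alternative, with log2 fold changes of 0.03, 0.24, -0.24 and 0.40. Their 95% intervals together ran from -0.78 to 0.83.

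Taken over the 18 enzymes, 12 had a positive and 6 a negative log2 fold change. Their median was 0.11, but it turned negative with library totals alone (-0.08) and on the TPM scale (-0.20 with 1 TPM added, -0.21 with 0.1). Those scalings moved the median of all genes from 0.01 to -0.19, -0.10 and -0.23, while upper-quartile scaling moved it to 0.13. The median of the enzymes was above that of all genes in the main fit, with library totals or upper-quartile scaling and also with 0.1 TPM added, and below it with 1 TPM added and with no filter beyond 1 count.

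Differences within pairs showed where the enzymes varied. Their median was -0.12, 0.12, 0.43 and 0.05 on the log2 scale in pairs 1 to 4. The range was widest in pair 1, from -2.60 for Hmgcs1 to 1.48 for Tm7sf2. Of the 29 members, 5 were lower in pair 1 and higher in all 3 other pairs, namely Insig1, Idi1, Sqle, Cyp51 and Soat1. Without replicate 1, Insig1, Idi1 and Soat1 joined Acat2 and Tm7sf2, so that 5 of 29 members were called higher, where 1380 of all 19315 genes tested were. With the trend on gene length removed from each library, the pair 1 differences were -0.42 for Insig1, -0.56 for Idi1, -0.30 for Sqle, 0.34 for Cyp51 and -0.33 for Soat1. The median of the enzymes in pair 1 was then 0.07. For these differences within pairs, the removal was chosen after those of pair 1 had been seen.

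**Figure D2:**
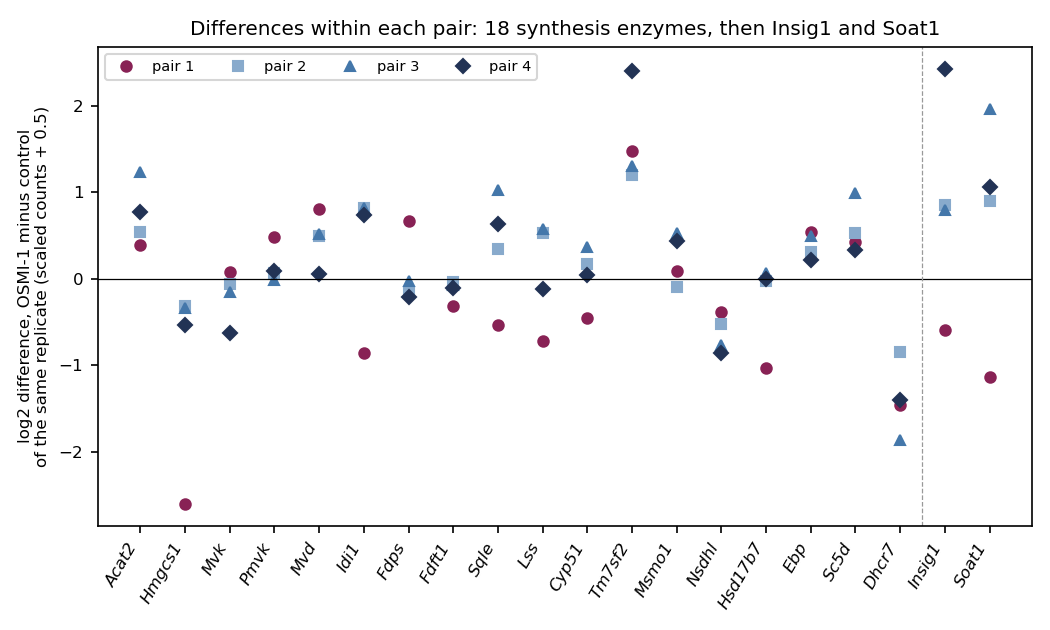
Log2 difference in scaled counts (0.5 added) between the OGTi (OSMI-1) and the control culture of the same replicate, for the 18 synthesis enzymes in pathway order and for Insig1 and Soat1. Points of pair 1 lie apart for Hmgcs1 (-2.60), Idi1, Sqle, Hsd17b7, Insig1 and Soat1. Of the 18 enzymes, 5 go upward in all 4 pairs, Tm7sf2 included, and 4 downward, Dhcr7 and Hmgcs1 included. Over all genes 19.4% and 21.5% did so.

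Of the 6 genes for sterol export, transport, storage and sensing, Abca1, Abcg1, Ch25h and Stard4 fell in OGTi, and Mylip and Soat1 were not called. Abca1 pumps cholesterol onto lipid-poor apolipoprotein A-I and is induced by LXRs, and it lies at chr4:53030787-53159900. Its scaled counts were 203, 135, 160 and 124 in control and 12.3, 32.4, 56.3 and 21.8 in OGTi. All OGTi cultures were well below all controls. The fall was 5.50-fold (log2 fold change -2.46 ± 0.43 SE, edgeR adjusted p 0.00375). Abca1 was the longest member at 10296 bases. The log2 fold change was -2.001 without replicate 1 and -2.33 with the length trend removed, and the call held in all 14 alternatives. On the scale of log2(TPM + 1) it read -0.64, since Abca1 averaged only 0.75 TPM in control.

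Ch25h makes an oxysterol that blocks SREBP release and activates LXRs, and it has a single exon at chr19:34451178-34452564. It fell from 435, 207, 649 and 815 scaled counts in control to 62.5, 43.6, 142 and 150.5 in OGTi. Control cultures varied widely, yet the lowest control was above the highest OGTi culture. Within pairs the differences were -2.79, -2.23, -2.19 and -2.43 on the log2 scale. The fall was 5.34-fold (log2 fold change -2.42 ± 0.25 SE, edgeR adjusted p 0.000343), and it was called in all 14 alternatives. An antisense gene, Gm26902, covers 698 of its 1387 exonic bases, and the authors counted by strand.

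Abcg1, which exports cholesterol to high-density lipoprotein and is a further LXR target, fell less. It held 4190, 3606, 5829 and 3578 scaled counts in control and 2724, 2954, 2420 and 1536 in OGTi, with no overlap. The decrease was 1.80-fold (log2 fold change -0.85 ± 0.23 SE, edgeR adjusted p 0.0290). Stard4, a cytosolic sterol carrier controlled by SREBP, held 466, 427, 575 and 463 scaled counts in control and 235, 300.4, 309 and 293 in OGTi, also with no overlap. Its decrease was 1.70-fold (log2 fold change -0.76 ± 0.22 SE, edgeR adjusted p 0.0397). With the length trend removed Abcg1 had an adjusted p of 0.108 and Stard4 of 0.127, and with upper-quartile scaling they had 0.0559 and 0.0806. Without replicate 3 or 4 Abcg1 was not called (0.166 and 0.118), and Stard4 was not called in any fit that left out a replicate (0.0649 to 0.189).

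Mylip, the ubiquitin ligase through which LXRs lower lipoprotein uptake, did not follow Abca1 and Abcg1. It was higher in all 4 pairs, at 224 to 304 scaled counts in control and 279 to 579 in OGTi, with a log2 fold change of 0.59 ± 0.24 (SE). It did not pass in the paired edgeR fit (adjusted p 0.119), but did with DESeq2 (0.0499) and with the length trend removed (0.0224). Soat1, which esterifies cholesterol for storage in droplets, varied most between OGTi cultures. It held 4733, 3490, 4603 and 5764 scaled counts in control and 2162, 6514, 18008 and 12011 in OGTi. It was lower in pair 1 and higher by 0.90 to 1.97 on the log2 scale in the other pairs. The log2 fold change was 0.74 ± 0.42 (SE, adjusted p 0.259), and 1.31 (adjusted p 0.0128) without replicate 1.

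**Figure D3:**
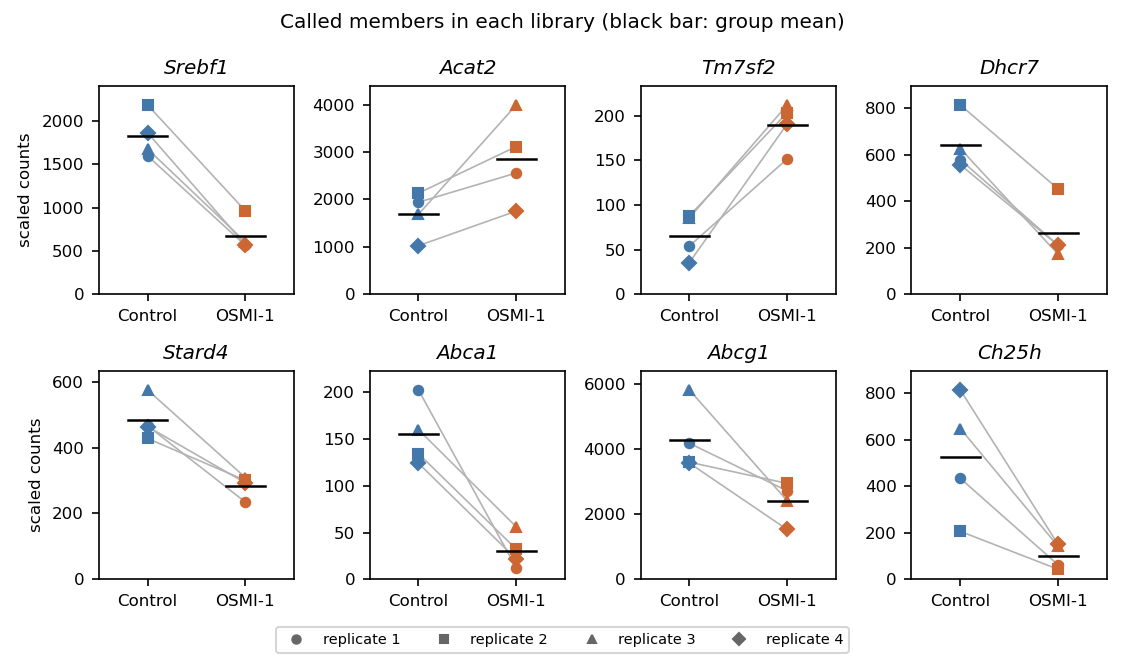
Scaled counts of the 8 called members in each library, with lines joining the control and the OGTi (OSMI-1) culture of a replicate and black bars at the group means. Both groups are separate in 7 of the 8 genes, and in Acat2 each line rises although the groups overlap.

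Levels per transcript length were compared on the deposited TPM scale. In control cultures Fdps was the most abundant member (114 ± 22.0 TPM), followed by Msmo1 (94.0 ± 6.9) and Sc5d (88.1 ± 14.9), and these 3 did not differ beyond their spread. The other enzymes apart from Tm7sf2 lay between Dhcr7 (14.1 TPM) and Ebp (60.5 TPM). The lowest members were Stard4 (4.67 ± 0.694 TPM), Mylip (4.11 ± 0.593), Tm7sf2 (2.58 ± 1.00) and Abca1 (0.750 ± 0.168, all SD, n = 4). Thus Tm7sf2 rose and Abca1 fell from low levels, to 5.99 ± 1.39 and 0.120 ± 0.0726 TPM in OGTi. Summed over the 18 enzymes, the level was 713 ± 36.4 TPM in control and 673 ± 111 TPM in OGTi. Control libraries ranged from 691 to 768 TPM and OGTi libraries from 546 (replicate 1) to 802 (replicate 3), so that the OGTi range enclosed the control range. The sums for the 5 regulators were 127 ± 8.25 and 94.7 ± 31.6 TPM.

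**Figure D4:**
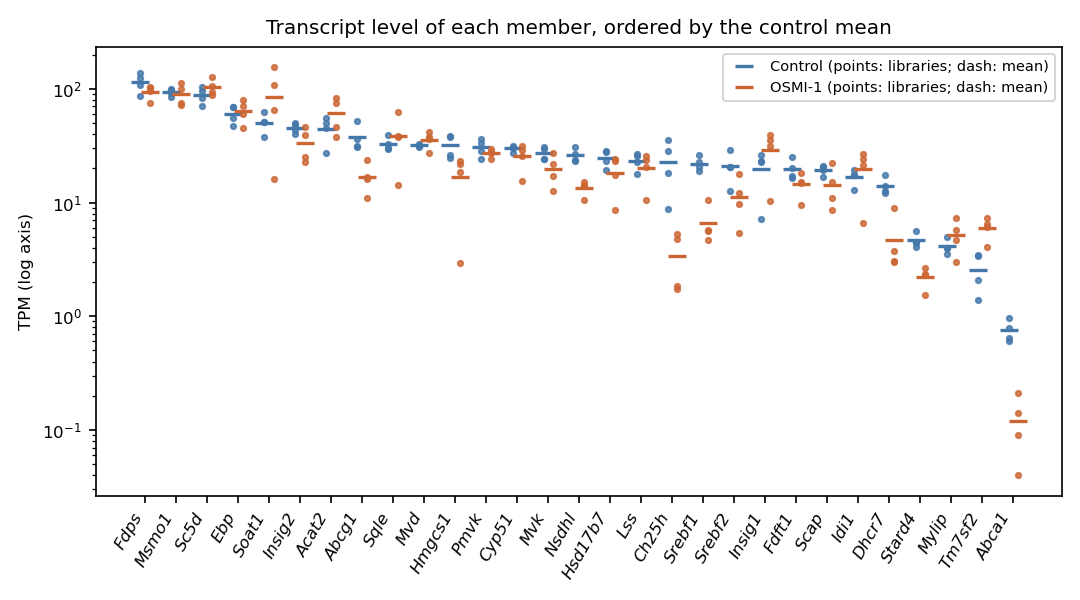
TPM of each member in each library on a log axis, ordered by the control mean, with dashes at the group means. Levels span from 114 TPM (Fdps) to 0.750 TPM (Abca1) in control. The 4 OGTi (OSMI-1) points of Abca1, Ch25h, Srebf1, Stard4, Dhcr7, Abcg1, Nsdhl and Hmgcs1 lie below all control points.

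Neighbouring parts of lipid metabolism were read from 71 genes in 5 lists, of which all 71 were tested, with 6 called higher and 8 lower. The share called was 11.1% in the fatty acid list, 18.2% in the isoprenoid branch, 22.2% in sterol trafficking, 23.1% in SREBP processing and 27.3% in the LXR list, where 18.4% of all genes were called. Among 18 fatty acid genes controlled by SREBP-1, 0 rose and 2 fell in edgeR, with a median log2 fold change of -0.18. The stearoyl-CoA desaturase Scd2 fell 3.00-fold (log2 fold change -1.59, adjusted p 0.00606), from 1298 to 2559 scaled counts in control to 238 to 1060 in OGTi. The elongase Elovl5 fell 1.62-fold (adjusted p 0.0463), a call that did not hold in 7 alternatives. The fatty acid synthase Fasn and the acetyl-CoA carboxylase Acaca did not pass, with log2 fold changes of 0.23 (adjusted p 0.502) and 0.15 (0.733).

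The LXR list held 11 genes, of which 1 rose and 2 fell. Nr1h3, which encodes LXR alpha, fell 3.98-fold, from 210.1, 199.6, 259.7 and 291 scaled counts in control to 119.8, 92.7, 28.7 and 34.5 in OGTi (log2 fold change -1.99 ± 0.45 SE, edgeR adjusted p 0.0127). Each OGTi culture was below each control, and the call was lost without replicate 3 (0.0541) or 4 (0.0697). Nr1h2, which encodes LXR beta and was more abundant at 3436 ± 375 scaled counts in control (SD, n = 4), had a log2 fold change of -0.11 (adjusted p 0.738). LXR targets went both ways. Abca1 and Abcg1 fell, Apoe rose 1.96-fold (adjusted p 0.0250, not called in 5 alternatives) and Myo1c fell 1.76-fold (adjusted p 0.0460, not called in 8).

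Of 13 genes for SREBP processing and sterol-regulated degradation, 1 rose and 2 fell. Mbtps1, the protease that makes the initial cut in SREBPs, fell 2.02-fold (adjusted p 0.0314) and Erlin2, which takes part in the degradation of sterol-regulated membrane proteins, 2.35-fold (adjusted p 0.0360). Each was lost in 4 alternatives. Pgrmc1, a haem-binding membrane protein that partners with sterol enzymes, rose 1.76-fold (adjusted p 0.0124, not called without replicate 3). Both were lowest in OGTi replicate 1, Mbtps1 at 661 and Erlin2 at 716 scaled counts. The remaining OGTi cultures held 2096 to 2558 and 2189 to 2833.

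Among 11 genes of the isoprenoid branch, Fntb, the catalytic subunit of farnesyltransferase, fell 2.91-fold (adjusted p 0.00151, called in all 14 alternatives) and Nus1, which serves dolichol synthesis, rose 1.93-fold (adjusted p 0.0121, not called in 4 alternatives). The shared subunit Fnta did not pass (log2 fold change 0.20, adjusted p 0.717). Of 18 genes for sterol trafficking and turnover, 3 rose and 1 fell. Gramd1a, which carries cholesterol from the plasma membrane to the endoplasmic reticulum, rose 3.28-fold (adjusted p 0.00174). Soat2, the second sterol esterification enzyme, rose 3.12-fold (adjusted p 0.00417). Its scaled counts were low, at 58 to 91.5 in control and 182 to 355 in OGTi. The lysosomal carrier Npc2 rose 1.65-fold (adjusted p 0.0264) and the endocytic receptor Lrp1 fell 1.96-fold (adjusted p 0.0111). Gramd1a and Soat2 were called in all 14 alternatives, whereas Npc2 lost its call in 5 and Lrp1 in 3.

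**Figure D5:**
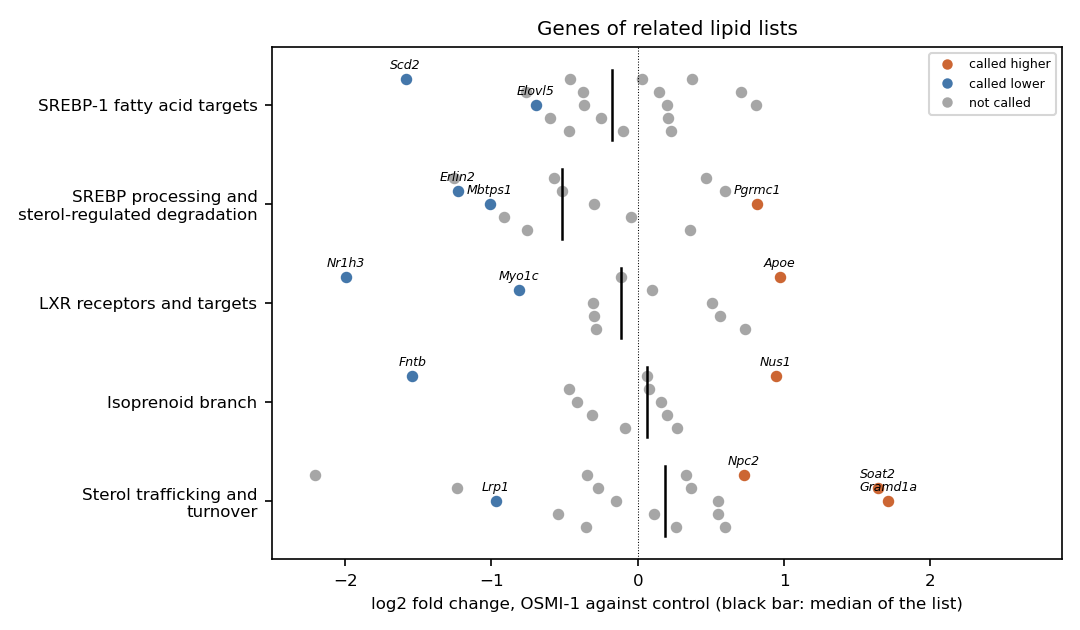
Log2 fold change, OGTi (OSMI-1) against control, of each gene in 5 related lipid lists, coloured by call, with a black bar at the median of each list. Each list holds 2 to 4 called genes, and Nr1h3 (-1.99) and Gramd1a (1.71) are the outermost of them.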

How the data were processed

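RNA-seq libraries from 4 control and 4 OGTi pMF-HSC cultures were analysed. Per the labels and methods, the authors made stranded poly(A) libraries, aligned reads with Bowtie2 2.3.5.1 to GRCm39 (mm39) and counted them by strand with RSEM 1.3.1. They deposited, per library, expected counts (estimates that need not be whole, not normalized), TPM (scaled for length and depth) and gene length in bases. The methods name GENCODE, but transcript identifiers are RefSeq. A table of the authors' own comparison, with counts and DESeq2 1.36.0 statistics, was not used. The number of unused columns of other samples was 0.

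Expected counts were rounded. Genes with at least 10 counts in total were fitted in edgeR 4.0.16 (R 4.3.3) with TMM scaling, a quasi-likelihood test and the replicate number as a block, as the study paired its samples. Benjamini-Hochberg adjustment ran over the whole table, with 0.05 as the limit for a call. SE was the log2 fold change divided by the root of F. To obtain scaled counts, each library was divided by its effective (TMM) size and multiplied by the mean effective size. Deviations from group means correlated at 0.105 to 0.318 between same-numbered libraries and -0.312 to 0.208 between others, across genes, which are not independent replicates. The coefficient of variation left between cultures after fitting group and replicate number (edgeR) was 0.342, above the counting error of all but the lowest counts. The fit was tested on simulated data. Alternatives were DESeq2 1.42.0, other scalings and filters, no pairing, each library's trend on gene length removed, limma 3.58.1 on log2(TPM + 1) or log2(TPM + 0.1), and leaving out each replicate. Members and lists were chosen with earlier results of these data known. Named genes were all 29 members and, in related lists, the called genes, up to 3 per direction. Others (Acat3, Tcp1, Vps51, Fasn, Acaca, Nr1h2, Fnta and the cell markers) were named after values were seen. Promoters came from RefSeq (GRCm38.p6).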

Additional observations from a re-analysis of the deposited data

Results flagged for a closer look

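In each group of 4 libraries, a member was looked for whose highest or lowest culture stood far from the other 3 (Dixon's criterion). This was found in 4 of 58 groups, where chance would give 2.9. In OGTi replicate 2, Srebf1 stood at 964 scaled counts while the remaining OGTi cultures held 565 to 606. Dhcr7 stood at 452 in the same library, with the rest at 172 to 211. Insig1 was low in control replicate 4 at 355 scaled counts, the remaining controls holding 1133 to 1271. Cyp51 had 2360.3 in control replicate 2, against 2599 to 2618, a small gap between cultures that were otherwise nearly equal.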

How the results depend on the processing

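Among the 29 members and the called genes of the related lists, no call was reversed under any alternative. The other genes named were not followed across alternatives. Srebf1, Dhcr7, Abca1, Ch25h and Tm7sf2 were called in all 14. With no replicate block, 1459 genes were higher and 1532 lower, 1 member was higher (Acat2 was lost) and 6 lower, and 3 genes of the related lists were lower. Members called higher numbered 1 with library totals alone and with limma on either TPM scale, and 4 with DESeq2 or with the length trend removed. In those last fits 2376 of 17253 and 2198 of 19963 genes were higher, against 1623 of 19963 in the paired edgeR fit. Members called lower ranged from 4 to 8. Genes of related lists called higher numbered 11 with DESeq2 or the length trend removed and 3 with limma on TPM, which called 15 or 16 of them lower (1 or 0.1 added) and 3456 or 3473 of all genes lower. The share of higher calls among all genes was 44.3%, 54.2% with upper-quartile scaling, 30.1% with library totals alone and 25.7% or 26.2% on TPM. Leaving out a replicate, with 6 libraries per fit, gave 843 to 1433 higher and 1062 to 1744 lower genes, 1 to 5 members higher, 4 to 6 members lower, and 2 to 7 genes higher and 2 to 6 lower in the related lists. The lowest counts over all genes came without replicate 3 or 4, and the 5 members higher without replicate 1. Reading all 300 promoter bases left 20, 6 and 1 members with an NF-Y box, E-box and sterol element. The causes were not tested. Among called members Abca1 and Tm7sf2 had the fewest counts and the widest 95% intervals.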
